A study of Mus musculus with 18 samples.

Results

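The genes described here encode the proteasome, the complex that degrades ubiquitin-tagged proteins. They were chosen by name: protein-coding genes of the GENCODE M21 annotation whose symbol starts with Psma, Psmb, Psmc, Psmd, Psme, Psmf or Psmg followed by a digit, without the immunoproteasome genes Psmb8, Psmb9 and Psmb10. The rule gave 47 genes among 50600 gene identifiers, and 45 of them had enough reads to be tested, among 13939 tested genes. Psma8, a testis form of an alpha subunit, had no read in any library. Psmb11, the beta subunit of the thymus cortex, had reads only in MK5-depleted DM2 library 2 (0.0546 CPM) and control DM2 library 1 (0.0483 CPM). CPM are reverse-strand read counts relative to library size, after scaling of the libraries to each other by TMM. Psmc3ip also carries the prefix, but its product works in meiotic recombination and is no proteasome subunit, so it is kept apart below.

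The study used C2C12, a mouse myoblast cell line that fuses into myotubes when serum is withdrawn. The groups came from 3 stable C2C12 lines, each sequenced as 3 libraries in each of 2 media, which gave 18 poly-A libraries. The ERK3-depleted line was transfected with px459-Mapk6sg, a CRISPR plasmid with a guide against Mapk6, the gene of the kinase ERK3. The MK5-depleted line was transfected with px459-Mk5sg, against the gene of the kinase MK5 (Mapkapk5), and the control line with a control plasmid. Differentiating cells spent 2 days in differentiation medium (DM2), and proliferating cells stayed in growth medium (GM). The labels do not say whether a line is 1 clone, or whether libraries of a group came from separate cultures. P-values therefore measure the spread between these libraries, which may be technical.

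A proteasome is a barrel of stacked rings of alpha and beta subunits, the core particle, capped by a regulatory particle. Psma genes encode alpha subunits and Psmb genes beta subunits, among them the proteases Psmb5 (chymotrypsin-like), Psmb6 (caspase-like) and Psmb7 (trypsin-like). Psmc genes encode the ring of ATPases that unfolds substrates, and most Psmd genes the scaffold, ubiquitin receptors and deubiquitinase of the regulatory particle. Psme genes encode caps of another kind, Psmf1 an inhibitor, and Psmg genes, Psmd5, Psmd9 and Psmd10 chaperones that help the particles assemble. Proteasome genes are known to be transcribed together, in mammals under the factor Nfe2l1 when proteasome activity falls. In muscle the proteasome removes short-lived regulators during differentiation and contractile proteins during atrophy.

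The bases just upstream of the start are shown for 5 members, since the results below turn on genes that differ together. Psmb3, Psmc1, Psmc4 and Psmd11 are core and regulatory particle genes that were higher in both depleted lines in GM, and Psmb6 is a catalytic subunit. Sequences are RefSeq's upstream windows on GRCm38.p6, each kept to the bases outside annotated exons and written in the direction of transcription. Capitals mark, on either strand, a CCAAT box (CCAAT), a GC box (GGGCGG) or an antioxidant response element core (TGACNNNGC).
Psmb3: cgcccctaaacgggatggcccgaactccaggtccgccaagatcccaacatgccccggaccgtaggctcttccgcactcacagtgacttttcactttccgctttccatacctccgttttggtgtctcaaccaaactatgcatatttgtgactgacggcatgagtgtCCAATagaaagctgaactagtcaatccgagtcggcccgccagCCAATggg
Psmc1: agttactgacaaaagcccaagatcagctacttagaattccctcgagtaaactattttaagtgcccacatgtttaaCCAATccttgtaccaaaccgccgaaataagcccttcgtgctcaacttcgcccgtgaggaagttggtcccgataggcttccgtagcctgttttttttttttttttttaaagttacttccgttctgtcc
Psmc4: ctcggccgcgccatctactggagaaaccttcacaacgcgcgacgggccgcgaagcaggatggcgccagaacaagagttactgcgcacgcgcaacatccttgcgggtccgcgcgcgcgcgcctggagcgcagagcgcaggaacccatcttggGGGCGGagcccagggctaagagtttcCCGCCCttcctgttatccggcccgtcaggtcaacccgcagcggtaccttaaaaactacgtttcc
Psmd11: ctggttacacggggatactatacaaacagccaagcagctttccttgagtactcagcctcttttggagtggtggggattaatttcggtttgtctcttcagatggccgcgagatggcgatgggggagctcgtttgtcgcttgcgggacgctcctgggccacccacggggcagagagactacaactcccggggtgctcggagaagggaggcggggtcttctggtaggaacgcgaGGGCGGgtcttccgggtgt
Psmb6: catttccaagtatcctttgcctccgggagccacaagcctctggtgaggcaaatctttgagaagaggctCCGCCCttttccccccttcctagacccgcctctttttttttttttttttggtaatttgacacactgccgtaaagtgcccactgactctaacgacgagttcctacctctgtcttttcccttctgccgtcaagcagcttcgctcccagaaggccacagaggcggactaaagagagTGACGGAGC
The Psmb3 window lies at chr11:97703184-97703398 on the plus strand and holds 2 CCAAT boxes. That of Psmc1 lies at chr12:100109952-100110153 on the plus strand, with 1 CCAAT box. That of Psmc4 lies at chr7:28050102-28050342 on the minus strand, with 2 GC boxes. The Psmd11 window, chr11:80428365-80428614 on the plus strand, holds 1 GC box. The Psmb6 window, chr11:70525107-70525356 on the plus strand, holds 1 GC box and, at its 3′ end, 1 antioxidant response element core. RefSeq gave a window for 39 of the 47 members and 42 windows in all. Over the 250 bases before each start, the GC box was in 22 of the 42 windows (52.4%), against 32.7% of all 32851 windows. The CCAAT box was in 14 member windows (33.3%, against 33.8% of all) and the TGACNNNGC core in 5 (11.9%, against 10.2% of all). These are matches of letters, and no binding was measured.

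Libraries held 23587495 to 31209608 reads, and 17474562 to 23423050 were counted in genes. Mapk6 was at 116, 96.8 and 136 CPM in ERK3-depleted DM2 libraries, against 219, 207 and 204 CPM in control DM2 libraries. It was called lower in MK5-depleted cells at DM2 too, at 161, 153 and 163 CPM. In GM it was at 115, 105 and 133 CPM in ERK3-depleted libraries and 150, 119 and 124 CPM in control libraries, a difference that was not called (adjusted p = 0.464, edgeR). Mapkapk5 was low everywhere, at 0.712, 0.825 and 0.580 CPM in MK5-depleted GM libraries and 0.960, 1.19 and 0.951 CPM in control GM libraries, and was called lower in MK5-depleted cells only at DM2. Reads over the guides' cut sites cannot be seen in gene counts. Reads outside genes were 3.79 to 7.73% in ERK3-depleted DM2 libraries and 2.84 to 4.11% in MK5-depleted DM2 libraries, against 2.44 to 3.05% in control DM2 libraries. Endothelial, immune and adipocyte markers summed to at most 1.92 CPM in any library, with Adgre1, Cd3e and Plin1 at 0. Of the neural markers Tubb3 alone had enough reads to be tested. It was at 98.5, 42.4 and 117 CPM in ERK3-depleted and 115, 80.5 and 132 CPM in MK5-depleted DM2 libraries, against 46.1, 10.5 and 11.8 CPM in control DM2 libraries, and was called higher in both lines (1.92 and 2.26 log2), with overlap between ERK3-depleted and control libraries. The 7 myoblast and myotube markers summed to 3030 to 3396, 2854 to 3751 and 2944 to 3105 CPM in ERK3-depleted, MK5-depleted and control DM2 libraries. In GM they summed to 1453 to 1644, 1310 to 1556 and 1055 to 1208 CPM, with Myod1 and Des called higher in both depleted lines. At DM2 the fusion gene Mymk was called lower in ERK3-depleted and MK5-depleted cells (−1.86 and −1.28), Ckm and Myf5 lower in ERK3-depleted cells, and Des higher in both lines. The response of 5 of the 7 (Mymk, Myh3, Myog, Ckm, Myod1) was lower in ERK3-depleted than in control cells, and that of Myod1 in MK5-depleted cells. Of all tested genes, 14% had a lower response in ERK3-depleted and 9.48% in MK5-depleted cells. Fibroblast markers summed to 653 to 738 CPM in ERK3-depleted and 691 to 836 CPM in MK5-depleted GM libraries, against 520 to 709 CPM in control GM libraries. The higher sums do not speak for the list, since 4 of the 5 (Dpt, Pi16, Dcn, Pdgfra) were called lower in each depleted line. Col1a1 was called in neither line in GM. At DM2 they summed to 1851 to 2024, 1620 to 2102 and 1212 to 1501 CPM in the ERK3-depleted, MK5-depleted and control libraries. In each depleted line 1 of 5 (Col1a1) was called higher there and 2 lower. Of all tested genes in GM, 3.72% were called higher and 3.06% lower in ERK3-depleted cells, and 4.71% and 3.74% in MK5-depleted cells. At DM2 these shares were 28% and 27.8% in ERK3-depleted cells, and 22.2% and 22.9% in MK5-depleted cells. The part of the markers in the results below was not tested.

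Per unit of length, core particle genes were the most abundant members. The level per length is given as TPM, RSEM's estimate of transcript abundance relative to length and to the library's total, from the authors' files. In control GM cells the 7 tested alpha subunit genes had a median of 252 TPM (135 to 352 TPM), and the 7 tested beta subunit genes 257 TPM (175 to 431 TPM). The 6 ATPase genes had a median of 169 TPM and the other 11 regulatory particle genes 130 TPM. Assembly chaperones were lower, with a median of 48.1 TPM over 7 genes, and the inhibitor Psmf1 was at 26.8 TPM. Psmb4, Psmb1 and Psma7 led the order at 431, 420 and 352 TPM. The activators spread most, since Psme2, which with Psme1 forms a cap induced by interferon, was at 290 TPM and Psme4, a nuclear activator, at 29.9 TPM. Psmc3ip was lowest at 13.9 TPM.

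As a share of all gene counts, the 47 genes took more in depleted GM cells than in control GM cells, and about equal shares at DM2. In GM the share was 0.768% ± 0.0337 in ERK3-depleted, 0.720% ± 0.0125 in MK5-depleted and 0.640% ± 0.0196 in control libraries (SD, n = 3 each). The lowest ERK3-depleted library (0.737%) and the lowest MK5-depleted library (0.712%) both lay above the highest control library (0.662%). At DM2 the share was 0.599% ± 0.0432 in ERK3-depleted, 0.627% ± 0.0419 in MK5-depleted and 0.604% ± 0.00832 in control libraries, and the groups overlapped. Summed TPM gave the same picture in GM, with 8261 ± 200 in ERK3-depleted, 7981 ± 192 in MK5-depleted and 7264 ± 292 in control libraries. At DM2 it was 6129 ± 855, 6772 ± 690 and 7451 ± 89.4 in ERK3-depleted, MK5-depleted and control libraries, so on this unscaled measure the control mean was the highest. In bulk RNA, fewer cells of a type and less RNA per cell cannot be told apart.

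**Figure D1:**
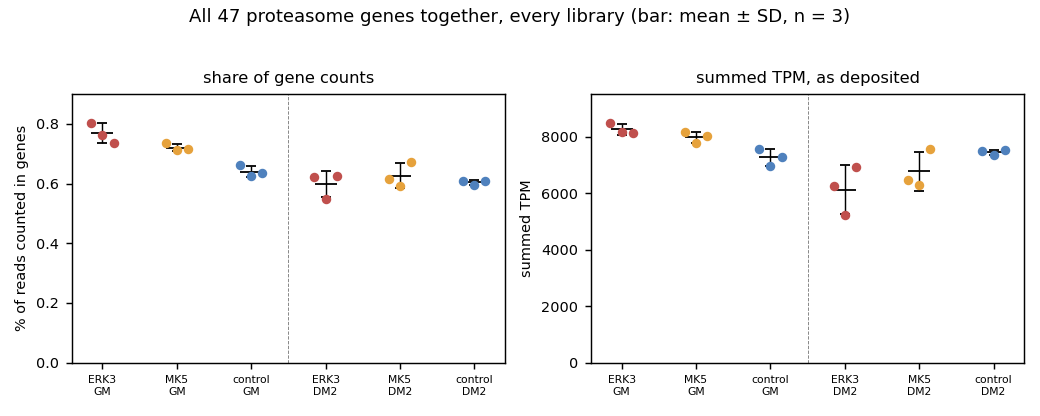
Summed level of the proteasome genes in each library, as a percentage of all gene counts and as summed TPM, with each group's mean and SD. In GM every depleted library lies above the control libraries on the left scale, while at DM2 the groups overlap there.

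In growth medium, part of the genes of the core and the regulatory particle were called higher, by less than 1.5-fold, more of them in ERK3-depleted than in MK5-depleted cells, where most were not called. The activators and the inhibitor were called in neither line, and the calls depended on single libraries, as given below. In ERK3-depleted cells 17 of the 45 tested members were called higher and 0 lower (37.8%, where 3.72% of all tested genes were called higher and 3.06% lower). The median member differed by 0.28 on the log2 scale (median of all tested genes −0.01), and 40 of 45 members were positive. In MK5-depleted cells 7 were called higher and 0 lower (15.6%, where 4.71% of all tested genes were called higher and 3.74% lower), with a median of 0.19 and 37 of 45 positive. Calls are edgeR quasi-likelihood tests with Benjamini-Hochberg adjustment over all tested genes, at an adjusted p under 0.05. Without Psmc3ip the counts were 16 and 6 of 44. Both comparisons use the same 3 control libraries, so they are not independent of each other.

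Among beta subunits, the noncatalytic Psmb3 (chr11:97703399-97713500, plus strand, GRCm38) stood highest in ERK3-depleted GM cells. Its CPM were 143, 143 and 117 in ERK3-depleted libraries and 125, 117 and 116 in MK5-depleted libraries, against 103, 87.7 and 89.9 in control libraries. All libraries of the depleted lines were above all control libraries. The log2 fold change was 0.52 ± 0.10 (SE; 1.43-fold, adjusted p = 0.0109, edgeR) in ERK3-depleted and 0.35 ± 0.10 (1.28-fold, adjusted p = 0.0357) in MK5-depleted cells. Psmb4, Psmb6 and Psmb2 were the other beta subunits called in ERK3-depleted cells, by 0.33, 0.38 and 0.26 log2.

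Of the catalytic subunits, Psmb6 was called in ERK3-depleted cells and none in MK5-depleted cells. Psmb6 was at 231, 237 and 202 CPM in ERK3-depleted, 205, 206 and 192 CPM in MK5-depleted and 179, 173 and 163 CPM in control libraries (adjusted p = 0.0140 and 0.0782, edgeR, for the ERK3-depleted and the MK5-depleted line). Psmb5 differed by 0.29 ± 0.10 log2 in ERK3-depleted and 0.13 ± 0.10 in MK5-depleted cells, and Psmb7 by 0.29 ± 0.09 and 0.19 ± 0.09, none of them called. Whether the lines differ in these genes is given below by their own comparison. Psma2 and Psma7 were the alpha subunits called in ERK3-depleted cells, by 0.33 ± 0.09 and 0.32 ± 0.07 log2, while no alpha subunit was called in MK5-depleted cells.

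In the ATPase ring, 4 of 6 genes were called higher in ERK3-depleted cells and 2 of 6 in MK5-depleted cells. Psmc4 (chr7:28041707-28050101, minus strand) was at 151, 151 and 144 CPM in ERK3-depleted and 145, 130 and 138 CPM in MK5-depleted libraries, against 123, 101 and 106 CPM in control libraries. The lowest depleted library thus lay above the highest control library, and the log2 fold changes were 0.43 ± 0.09 (1.35-fold) and 0.32 ± 0.09 in the ERK3-depleted and the MK5-depleted line. Psmc1 was called in both lines (0.35 and 0.26), and Psmc5 and Psmc2 in ERK3-depleted cells (0.39 and 0.32). In the rest of the regulatory particle, 5 of 11 genes were called in ERK3-depleted cells: Psmd3, Psmd7, Psmd4, Psmd1 and Psmd11. Psmd7 is the partner of the deubiquitinase Psmd14 and Psmd4 a ubiquitin receptor, and their log2 fold changes were both 0.35. Psmd3 (0.29) and Psmd11 (0.27), which sit in the lid that covers the ATPase ring, were called in MK5-depleted cells.

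Few members outside both particles were called in GM. The chaperone Psmg2 was called in both lines, by 0.28 ± 0.08 log2 in ERK3-depleted and 0.25 ± 0.08 in MK5-depleted cells, and the other 6 chaperones in neither. Psme1 and Psme2 differed by −0.08 ± 0.12 and −0.05 ± 0.11 in ERK3-depleted and by −0.25 ± 0.12 and −0.21 ± 0.11 in MK5-depleted cells, with libraries that overlapped those of control. Psme2b, a close copy of Psme2, differed by −0.14 and −0.08, Psme3 by 0.18 and 0.24 and Psme4 by −0.11 and −0.01 in the ERK3-depleted and MK5-depleted lines, none called. Psmf1 differed by 0.01 and 0.06. Psmc3ip had the largest fold change of any member called in GM, at 1.59-fold and 1.61-fold higher (adjusted p = 0.0184 and 0.0119, edgeR) in the ERK3-depleted and MK5-depleted lines.

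These GM calls sat close to the threshold and depended on single libraries. No member was called in ERK3-depleted cells without ERK3-depleted GM library 1, control GM library 2 or control GM library 3, and 11 were called without ERK3-depleted GM library 3 (edgeR). The tested genes called numbered 946 with all libraries, and 0, 0, 73 and 633 without these. In MK5-depleted cells 0 members were called without MK5-depleted GM library 1 or 3 or control GM library 2, and 1 without control GM library 3, where 1178 tested genes were called with all libraries and 212, 156, 42 and 358 without these. With the replicate number as a block, 24 and 16 members were called higher in the ERK3-depleted and MK5-depleted lines, where 1905 and 2045 tested genes were called. On unscaled TPM no member was called in either line, where 8 and 169 of 12516 genes were.

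**Figure D2:**
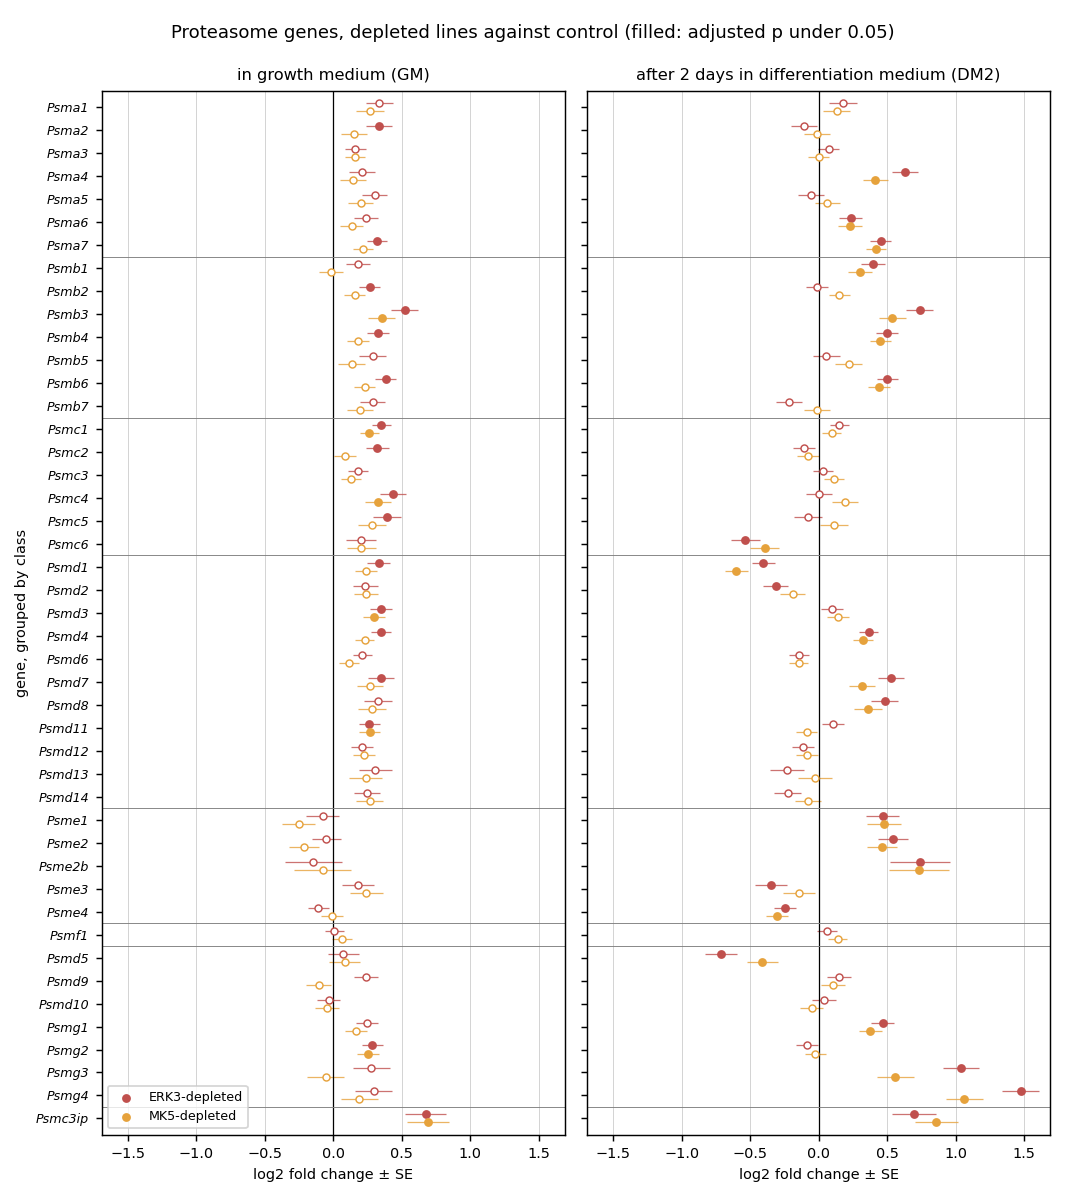
Log2 fold change of the 45 tested members in ERK3-depleted and MK5-depleted cells against control, in GM and at DM2, with standard errors, and with called members filled. In GM nearly all points of both particles lie above 0, while at DM2 Psmg4 reaches 1.47 and Psmd5 −0.71 in ERK3-depleted cells; on unscaled TPM several members called higher at DM2 turn below 0.

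At DM2 the members split. In both depleted lines 3 of 7 alpha and 4 of 7 beta genes, the activators Psme1 and Psme2 and the chaperone pair Psmg3 and Psmg4 were called higher, and the chaperone Psmd5, the ATPase Psmc6, Psmd1 and the activator Psme4 lower. In ERK3-depleted cells 17 members were called higher and 6 lower (37.8% and 13.3%, where 28% and 27.8% of all tested genes were). In MK5-depleted cells 17 were called higher and 4 lower (37.8% and 8.89%, where 22.2% and 22.9% of all tested genes were). The member medians were 0.07 and 0.13 log2 in the ERK3-depleted and MK5-depleted lines (all genes 0.01 and 0.00), with 28 of 45 positive in each. The 2 comparisons again share their control libraries.

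Psmg4 (chr13:34162964-34178173, plus strand), which pairs with Psmg3 to hold the growing alpha ring, had the largest fold change of any member. It was at 47.6, 47.9 and 31.5 CPM in ERK3-depleted libraries and 33.5, 32.9 and 29.1 CPM in MK5-depleted libraries, against 15.7, 15.7 and 14.4 CPM in control libraries. Each depleted library exceeded each control library, and ERK3-depleted library 3 lay below the other ERK3-depleted libraries. The log2 fold changes were 1.47 ± 0.14 (2.78-fold, adjusted p = 2.93e-06, edgeR) and 1.06 ± 0.14 (2.09-fold, adjusted p = 2.85e-05). Psmg3 was at 30.9, 26.3 and 19.9 CPM in ERK3-depleted and 19.9, 18.4 and 16.9 CPM in MK5-depleted libraries, against 13.0, 11.3 and 13.2 CPM in control libraries. The groups did not overlap, at 1.04 ± 0.13 and 0.56 ± 0.13 log2. Psmg3 overlaps exons of Gm26938 on the same strand, and its reads may be shared. Psmg1, of the other chaperone pair, was called higher in both lines (0.47 and 0.38), and its partner Psmg2 in neither (−0.08 and −0.02).

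The chaperone Psmd5 (chr2:34849734-34874968, minus strand), which holds ATPases during assembly, was lower. It was at 41.0, 39.3 and 49.7 CPM in ERK3-depleted and 46.5, 51.2 and 62.3 CPM in MK5-depleted libraries, against 65.8, 72.1 and 75.0 CPM in control libraries. No depleted library reached the lowest control library, and the log2 fold changes were −0.71 ± 0.11 (adjusted p = 6.64e-05, edgeR) and −0.41 ± 0.11 (adjusted p = 0.00696). The other base chaperones, Psmd9 and Psmd10, were called in neither line.

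In the core particle no gene was called lower in either depleted line. Psmb3 was at 167, 169 and 133 CPM in ERK3-depleted and 141, 134 and 132 CPM in MK5-depleted libraries, against 90.4, 90.8 and 100.1 CPM in control libraries. On these counts both depleted lines were above control, by 0.74 ± 0.10 log2 (1.67-fold, adjusted p = 1.46e-05, edgeR) and 0.54 ± 0.10 (1.45-fold, adjusted p = 0.000413). Psmb4, Psmb6 and Psmb1 were the other beta genes called, at 0.50, 0.50 and 0.40 in the ERK3-depleted line and 0.45, 0.44 and 0.30 in the MK5-depleted line. Psma4, Psma7 and Psma6 were the alpha genes, at 0.63, 0.45 and 0.23 in the ERK3-depleted line and 0.41, 0.42 and 0.23 in the MK5-depleted line. Psma6 changed direction in ERK3-depleted cells, to −0.15 with length and GC offsets and the replicate block (adjusted p = 0.0417, edgeR) and to −0.34 on unscaled log2(TPM + 1) (adjusted p = 0.00714, limma). On that TPM scale Psmb3, Psmb6 and Psma7 also fell below 0 there, at −0.0020 (adjusted p = 0.987, limma), −0.056 and −0.12. Psmb1 was called lower (−0.20, adjusted p = 0.0431, limma), while Psmb4 and Psma4 stayed above 0. The median of all genes was −0.48 on it. The 3 proteases differed from one another. Psmb6 was called higher, whereas Psmb5 (0.05 ± 0.10 and 0.22 ± 0.10) and Psmb7 (−0.22 ± 0.09 and −0.01 ± 0.09) were called in neither line. In ERK3-depleted cells Psmb5 was called lower with length and GC offsets (−0.48, adjusted p = 0.0082, edgeR) and on unscaled log2(TPM + 1) (−0.49, adjusted p = 0.00603, limma). For Psmb5 the reverse-strand counts held only 27.6% of the reads that RSEM assigned to it, and the microRNA gene Mir686 overlaps its exon on the same strand.

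In the regulatory particle the calls were fewer and went both ways. Of the 6 ATPases only Psmc6 was called, lower in both lines. Psmc6 was at 168, 124 and 181 CPM in ERK3-depleted and 167, 176 and 180 CPM in MK5-depleted libraries, against 227, 218 and 241 CPM in control libraries. The groups did not overlap, at −0.54 ± 0.11 and −0.39 ± 0.11 log2. Psmd7, Psmd8 and Psmd4 were called higher in both lines, by 0.53, 0.48 and 0.36 in the ERK3-depleted line and 0.31, 0.36 and 0.32 in the MK5-depleted line. Psmd1, a scaffold subunit, was called lower in both (−0.40 and −0.60), and Psmd2, its counterpart in the base, in ERK3-depleted cells (−0.31 ± 0.09) with −0.19 ± 0.09 in MK5-depleted cells. The Psmd1 value rests on the choice of counts: Gm21972 overlaps it on the same strand, and with RSEM expected counts the ERK3-depleted value was 0.26 (adjusted p = 0.0509, edgeR).

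Of the caps, Psme1 and Psme2, neighbours on chromosome 14, were higher in both depleted lines. Psme1 was at 76.4, 84.9 and 76.5 CPM in ERK3-depleted and 74.5, 80.6 and 84.2 CPM in MK5-depleted libraries, against 55.3, 56.5 and 60.4 CPM in control libraries. Every depleted library was above every control library, by 1.38-fold and 1.39-fold (adjusted p = 0.00358 and 0.00441, edgeR). Psme2 was at 83.2, 74.8 and 73.2 CPM in ERK3-depleted and 70.3, 68.5 and 79.5 CPM in MK5-depleted libraries, against 49.7, 50.9 and 58.2 CPM in control libraries, which is 1.46-fold and 1.38-fold higher. Psme2b was also called (0.74 ± 0.22 and 0.73 ± 0.22), but it had few reads, and its ERK3-depleted libraries overlapped those of control. Uniquely mapped counts of Psme2 and Psme2b were 54.3% and 39.6% of RSEM's expected counts, and Psme2b overlaps exons of 9930111J21Rik1 on the same strand. Psme3, a nuclear activator, was lower in ERK3-depleted cells (−0.35 ± 0.12, adjusted p = 0.0189) and differed by −0.14 ± 0.12 in MK5-depleted cells. Psme4 was called lower in both lines (−0.25 ± 0.08 and −0.30 ± 0.08), but with length and GC offsets the ERK3-depleted value was 0.06 (adjusted p = 0.50, edgeR). Psmf1 was not called (0.06 and 0.14), and Psmc3ip was 1.62-fold and 1.81-fold higher.

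**Figure D3:**
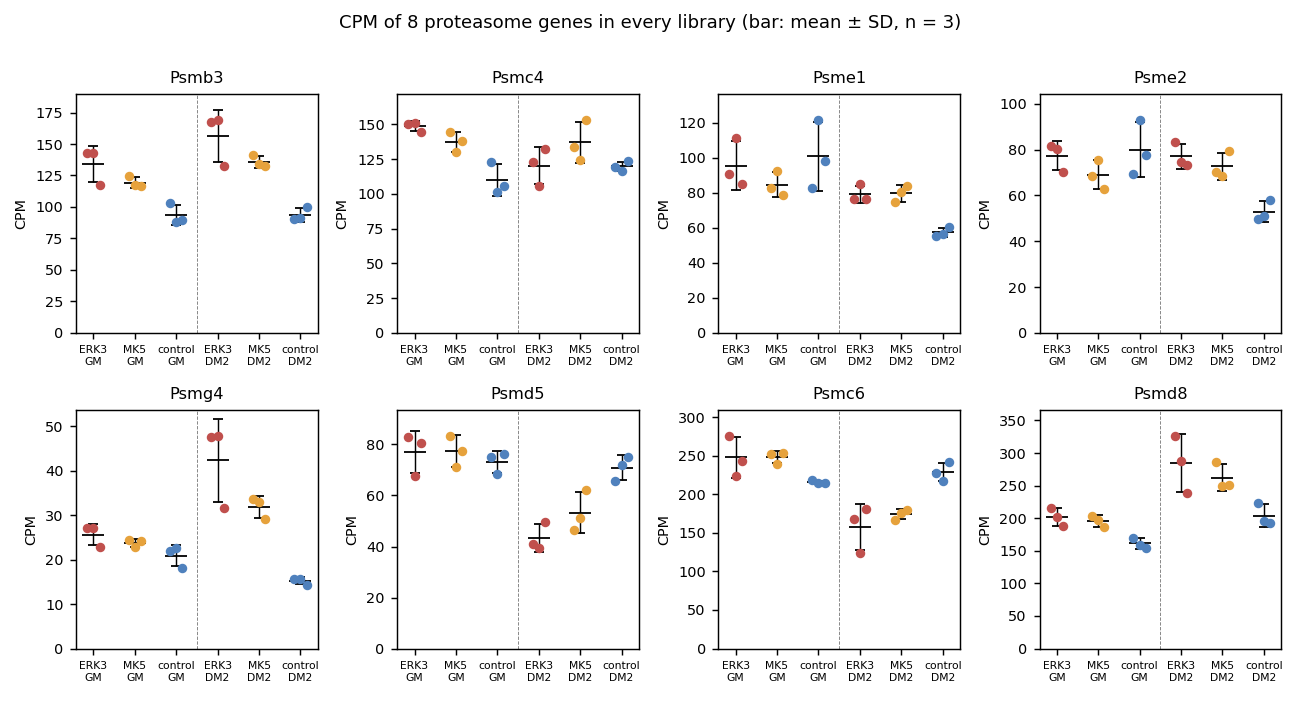
CPM of 8 members in each of the 18 libraries, with the mean and SD of each group. At DM2 the depleted libraries of Psmb3, Psme1, Psme2 and Psmg4 lie above all control libraries and those of Psmd5 and Psmc6 below, whereas in GM the depleted libraries of Psme1, Psme2 and Psmd5 overlap those of control.

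The DM2 calls depended on how library composition and gene length were treated. Unscaled TPM moved the median of all genes by −0.48 log2 in ERK3-depleted and −0.31 in MK5-depleted cells, and the members' medians there were −0.45 and −0.23. On that scale 2 members were called higher and 29 lower in ERK3-depleted cells, and 3 higher and 14 lower in MK5-depleted cells. Of the 12516 genes tested there, 1108 were called higher and 7619 lower in ERK3-depleted cells, and 1009 higher and 5674 lower in MK5-depleted cells. With per-library offsets for length and GC, the split was 9 higher and 16 lower in ERK3-depleted cells and 6 higher and 3 lower in MK5-depleted cells, and Psme1 and Psme2 were called in neither line. Psmb3, Psmd4, Psmg3 and Psmg4 were called higher in both lines in every fit on counts and with each library left out. Of the members called lower, 0 of 6 in ERK3-depleted and 0 of 4 in MK5-depleted cells kept the call in all of these.

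The members' fold changes at DM2 followed transcript length, as did those of all genes. Members had a median longest transcript of 1819 bases, against 3199.5 bases for all tested genes, and a GC content of 49.7%, like all genes. Over the 45 members the rank correlation of fold change with length was −0.539 for ERK3-depleted and −0.594 for MK5-depleted cells against control at DM2 (−0.378 and −0.399 over 13918 genes). With GC content it was 0.396 and 0.569 (0.182 and 0.239 over all genes). In GM the correlation with length was −0.133 in ERK3-depleted and −0.00711 in MK5-depleted cells (−0.307 and 0.0201 over all genes). For control DM2 against GM it had the other sign, at 0.526 (0.257 over all genes). The points share libraries, so these values describe and do not test. By this length Psmg4 was the shortest of the members (555 bases), and only Psme4 (6491 bases) was longer than Psmd5 (4397 bases). The part of length in the fold changes was measured only by the offsets above, under which Psmg4 stayed higher at 0.80 log2 in ERK3-depleted cells and Psmd5 lower at −0.48.

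**Figure D4:**
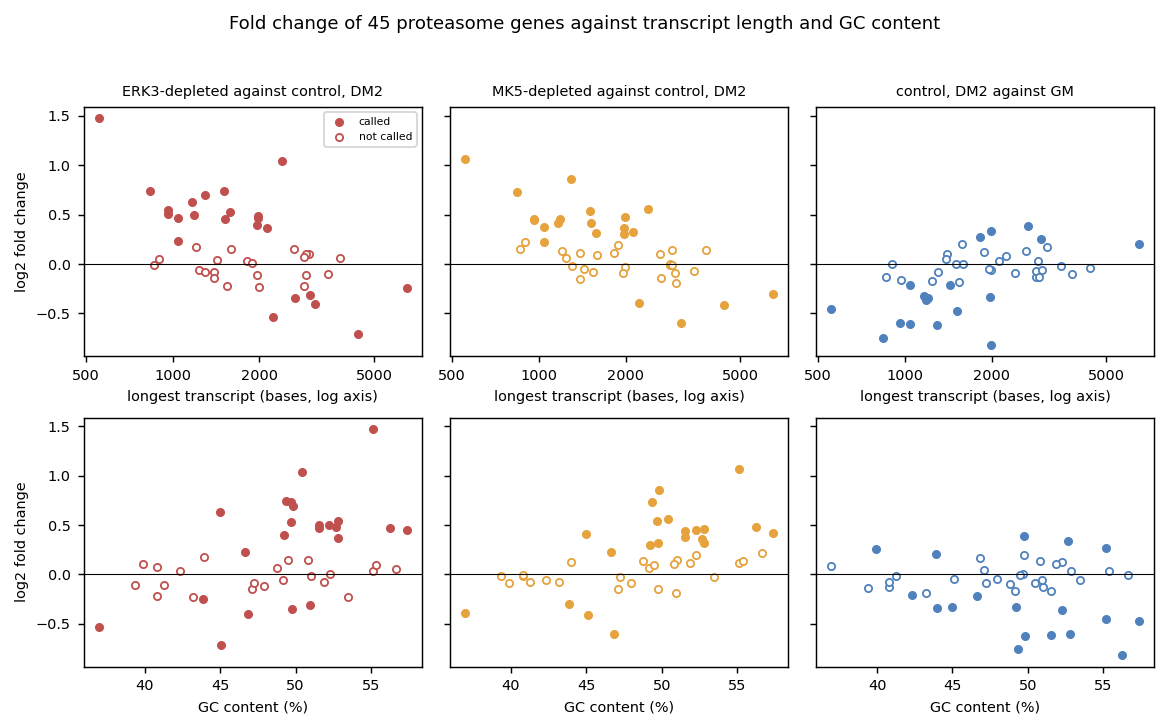
Log2 fold change of the 45 members against longest transcript length (log axis) and against GC content, for ERK3-depleted and MK5-depleted cells against control at DM2 and for control DM2 against GM. Shorter members tend to be higher in depleted cells (rank correlation with length −0.539 and −0.594) and lower on differentiation of control cells (0.526).

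In control cells, the activators Psme1, Psme2 and Psme2b, part of the chaperones and 4 of 7 alpha and 2 of 7 beta genes were called lower at DM2 than in GM, and most of the regulatory particle was not called. Of 45 members 5 were called higher at DM2 and 13 lower (11.1% and 28.9%, where 22.5% and 23.1% of all tested genes were), with a median of −0.07 (all genes −0.02). The share called lower was near that of all tested genes, and the share called higher was below it. Psme1 was at 55.3, 56.5 and 60.4 CPM at DM2, against 82.8, 122 and 98.3 CPM in GM. Every DM2 library lay below every GM library, and Psme1 fell by 0.82 ± 0.12 on the log2 scale (adjusted p = 2.85e-05, edgeR). Psme2 fell by 0.60 ± 0.11 and Psme2b by 0.75 ± 0.22, while Psme3 and Psme4 rose by 0.38 ± 0.12 and 0.21 ± 0.08. Psmg1 fell by 0.61 ± 0.08 (adjusted p = 9.71e-06, edgeR) and Psmg4 by 0.45 ± 0.14. Psma7, Psma1, Psma4 and Psma6 fell by 0.47, 0.34, 0.32 and 0.21, and Psmb4 and Psmb1 by 0.36 and 0.33. Psmb5, Psmb6 and Psmb7 differed by −0.00, −0.16 and −0.13 and were not called. In the regulatory particle Psmc3, Psmd8 and Psmd11 rose by 0.27, 0.34 and 0.25, and none of its genes was called lower. Psmd10 fell by 0.21, at the edge of the threshold (adjusted p = 0.0490, edgeR), and Psmc3ip by 0.62. With length and GC offsets Psma6 and Psmd10 changed sign, to 0.039 and 0.056, and were not called (adjusted p = 0.677 and 0.607, edgeR).

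In ERK3-depleted cells most genes of both particles were called lower at DM2 than in GM. Of 45 members 4 were called higher at DM2 and 24 lower (8.89% and 53.3%, where 28.9% and 26.2% of all tested genes were), with a median of −0.22 (all genes 0.01). The regulatory particle took part: 5 of 6 ATPases and 7 of 11 other genes were lower. Psmd14, the deubiquitinase, fell by 0.66 ± 0.10, Psmc6 by 0.65 ± 0.11, Psmd2 by 0.61 ± 0.09 and Psmd13 by 0.60 ± 0.12. In the core, 5 of 7 alpha and 3 of 7 beta genes were lower, led by the protease Psmb7 (−0.63 ± 0.09), Psma2 (−0.57 ± 0.09) and Psma5 (−0.53 ± 0.09). Psmb4, among these beta genes, was called higher on TMM-scaled log2(TPM + 1) (0.38, adjusted p = 0.0152, limma). Psmb7 was at 144, 110 and 137 CPM at DM2 and 214, 207 and 184 CPM in GM, with no overlap. For Psma5 the reverse-strand counts held only 43.7% of the reads that RSEM assigned to it. Among the chaperones Psmd5 fell by 0.83 ± 0.12, Psmg2 by 0.45 and Psmg1 by 0.39, whereas Psmg4 (0.72 ± 0.13) and Psmg3 (0.68 ± 0.13) rose. No activator was called, and Psmd8 and Psmd7 rose by 0.50 and 0.38.

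In MK5-depleted cells 6 members were called higher at DM2 and 19 lower (13.3% and 42.2%, where 24.6% and 24.8% of all tested genes were), with a median of −0.12 (all genes 0.00). The largest falls were Psmd1 (−0.67 ± 0.08), Psmd5 (−0.54 ± 0.11), Psmd14 (−0.53 ± 0.10), Psmc6 (−0.51 ± 0.11), Psmd2 (−0.49 ± 0.09) and Psma1 (−0.48 ± 0.10). Of the alpha genes 5 of 7 were lower and of the beta genes only Psmb7 (−0.33 ± 0.09). Psmg3, Psmg4 and Psmd9 rose, by 0.53, 0.42 and 0.34, as did Psmd8, Psmc3 and Psmd7, by 0.42, 0.26 and 0.25. All 5 activators were without a call, as in ERK3-depleted cells.

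**Figure D5:**
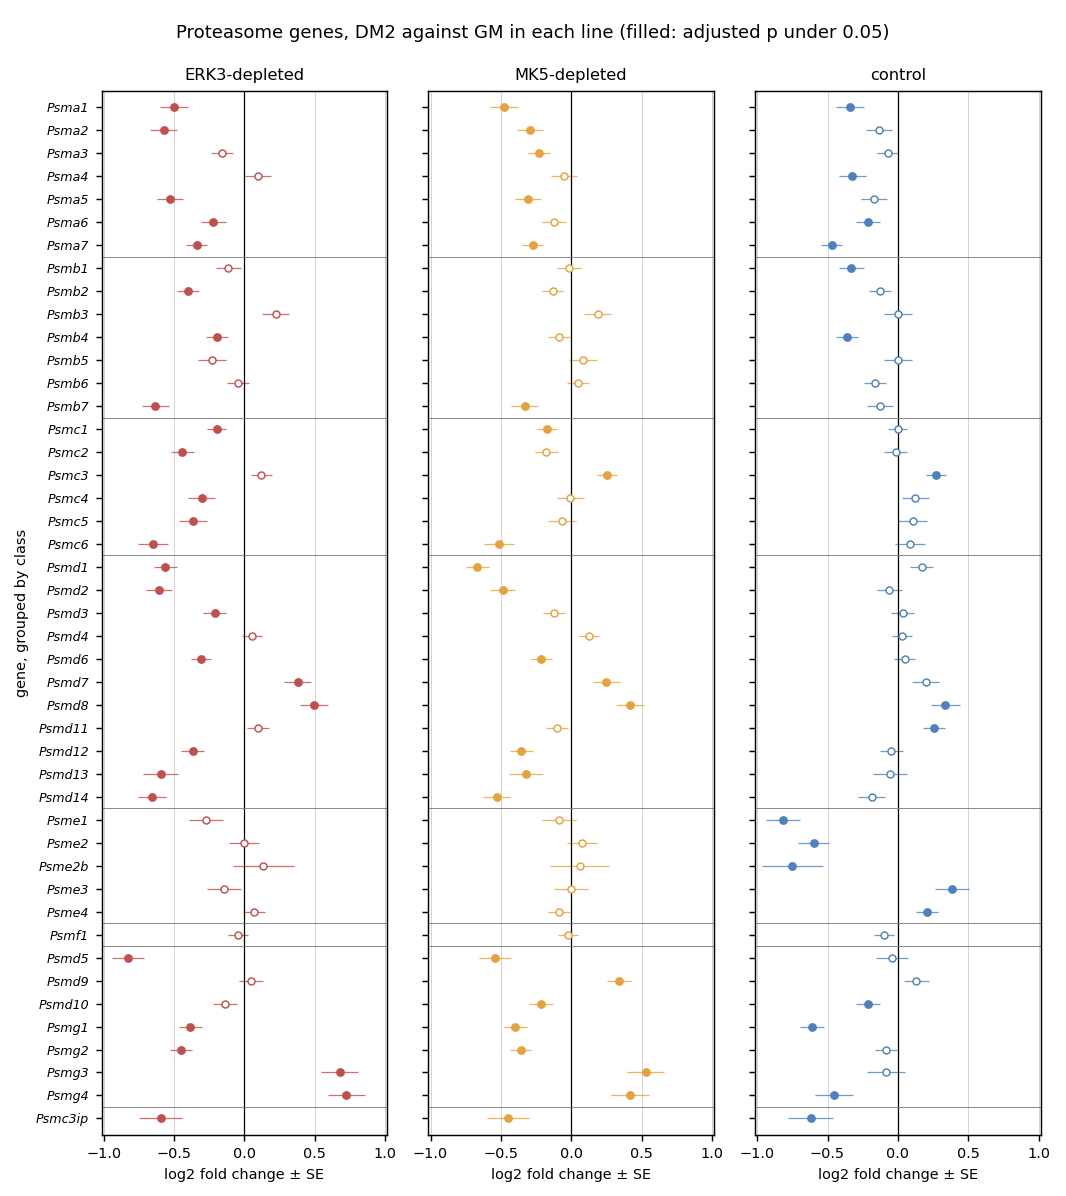
Log2 fold change of the 45 members at DM2 against GM in ERK3-depleted, MK5-depleted and control cells, with standard errors, and with called members filled. The activators, none called in the depleted lines, lie between −0.27 and 0.14 in ERK3-depleted and between −0.09 and 0.08 in MK5-depleted cells. Psme1 and Psme2 lie at −0.82 and −0.60 in control cells. The regulatory particle lies mostly below 0 in ERK3-depleted cells.

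The difference between each depleted line's response and the control response was tested directly. For ERK3-depleted cells 6 members had a higher and 16 a lower response (13.3% and 35.6%, where 14.6% and 14% of all tested genes did), with a median of −0.15 (all genes 0.02). The lower ones were 4 of 6 ATPases (Psmc6, Psmc5, Psmc4, Psmc2), 6 of 11 other regulatory particle genes, led by Psmd1 (−0.73 ± 0.12), Psmd2 (−0.55 ± 0.13) and Psmd13 (−0.54 ± 0.17), the core genes Psmb7, Psma2 and Psma5, the chaperones Psmd5 (−0.79 ± 0.16) and Psmg2 (−0.37 ± 0.11), and the activator Psme3 (−0.53 ± 0.17). The higher ones were Psmg4 (1.18 ± 0.19), Psme2b (0.89 ± 0.30), Psmg3 (0.76 ± 0.19), Psme2 (0.59 ± 0.15), Psme1 (0.54 ± 0.17) and Psma4 (0.42 ± 0.13). A response that differs can arise from GM as well as from DM2. Psmc4, for one, was higher in ERK3-depleted GM cells and differed by 0.01 ± 0.09 from control at DM2. The count of 22 calls fell to 11 without control GM library 2 or ERK3-depleted DM2 library 2, to 12 without ERK3-depleted GM library 1, and to 14 without ERK3-depleted DM2 library 1 or control DM2 library 3. Calls over all tested genes were 3983 with all libraries, 2789 and 2459 in the first pair of these settings, 3100 in the next, and 2556 and 3007 in the last pair.

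For MK5-depleted cells 4 members had a higher and 5 a lower response (8.89% and 11.1%, where 8.54% and 9.48% of all tested genes did), with a median of −0.02 (all genes 0.01). Psmg4 (0.87 ± 0.19), Psme1 (0.73 ± 0.17), Psme2 (0.67 ± 0.15) and Psmg3 (0.61 ± 0.19) were higher, and Psmd1 (−0.84 ± 0.12), Psmc6 (−0.60 ± 0.15), Psmd5 (−0.50 ± 0.16), Psmd2 (−0.43 ± 0.13) and Psmd11 (−0.35 ± 0.11) lower. These shares were near those of all tested genes. The 9 calls became 5 when MK5-depleted GM library 1 or 3, MK5-depleted DM2 library 1 or 2, control GM library 2 or 3 or control DM2 library 2 or 3 was left out, and 15 with the replicate block. Over all tested genes 2512 calls became 879 to 1732 without these libraries, and 3764 with the block.

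Set against each other directly, the depleted lines gave no call. In GM 0 of 45 members differed between MK5-depleted and ERK3-depleted cells (0% of all tested genes). Without adjustment 4 members and 1167 genes had p under 0.05, and DESeq2 called 0 members and 10 genes. The median member was at −0.09, and the member nearest to a call was Psmd9, at 42.8, 36.4 and 35.2 CPM in MK5-depleted and 50.7, 47.5 and 47.0 CPM in ERK3-depleted libraries (adjusted p = 0.362, edgeR). At DM2 0 members were called (0% of all tested genes), with 8 members and 2741 genes under 0.05 without adjustment, and DESeq2 called 0 members and 191 genes. The smallest adjusted p was that of Psmg3 (0.138), at −0.48 ± 0.13, followed by Psmg4 at −0.41 ± 0.13. With the replicate block 2 members were called lower, among 368 genes called, and without ERK3-depleted DM2 library 3 6 were called higher and 5 lower, among 3597 genes called. The absence of calls does not show that the lines are alike.

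Genes outside the rule that work with the proteasome are given next. Of 13 tested proteasome-bound or assembly genes, 2 were called higher in ERK3-depleted GM cells and 1 in MK5-depleted GM cells, and 0 lower. Among all tested genes in GM, 3.72% were called higher and 3.06% lower in ERK3-depleted cells, and 4.71% and 3.74% in MK5-depleted cells. Uchl5, a deubiquitinase bound to the regulatory particle, was at 73.4, 57.4 and 60.0 CPM in ERK3-depleted and 68.5, 59.5 and 75.5 CPM in MK5-depleted libraries, against 52.0, 41.4 and 42.9 CPM in control libraries. All depleted libraries were above control, by 0.49 and 0.58 log2, and Adrm1, the receptor that Uchl5 binds, was called in ERK3-depleted cells (0.39). No tested gene, Uchl5 and Adrm1 included, was called in ERK3-depleted GM cells without ERK3-depleted GM library 1 or control GM library 2. At DM2 4 of the 13 were called higher and 5 lower in ERK3-depleted cells, and 4 higher and 6 lower in MK5-depleted cells. Over all tested genes, 28% were called higher and 27.8% lower in ERK3-depleted cells, and 22.2% and 22.9% in MK5-depleted cells. Sem1, a small lid subunit, was higher by 0.85 and 0.61, and Pomp, the maturation factor of the core, was called higher in both, by 0.53 in ERK3-depleted cells. Ube3c, a ligase at the proteasome, was lower by 0.99 and 0.85 on the log2 scale in the ERK3-depleted and MK5-depleted lines, and Usp14, a deubiquitinase, by 0.52 and 0.47. The values of these and of the related genes below come from the edgeR fit on counts alone. How they depend on length and GC offsets or on TPM is not given.

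The immunoproteasome genes, which encode alternative proteases, were scarce. Psmb8 and Psmb9 stayed under 3 CPM, and in control cells Psmb9, Psmb8 and Psmb10 fell on differentiation by 1.69, 1.53 and 0.43 on the log2 scale. All 3 were called lower, as were 23.1% of all tested genes. Psmb10 was at 23.6, 24.4 and 18.4 CPM in ERK3-depleted and 21.1, 20.5 and 22.4 CPM in MK5-depleted DM2 libraries, against 14.7, 13.6 and 14.9 CPM in control DM2 libraries. The depleted libraries lay above control, by 0.62 (adjusted p = 0.00243, edgeR) and 0.56 log2. Psmb8 was called higher at DM2 too, in MK5-depleted cells only. Of all tested genes, 28% were called higher at DM2 in ERK3-depleted and 22.2% in MK5-depleted cells. In GM none of the 3 was called in either line.

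Among 12 tested regulators of proteasome gene transcription, none was called in ERK3-depleted GM cells, and the small Maf protein Mafk was lower in MK5-depleted GM cells (−0.34). Nfe2l1, the activator of proteasome genes, was at 298, 322 and 325 CPM in ERK3-depleted and 322, 304 and 316 CPM in MK5-depleted GM libraries, against 329, 320 and 314 CPM in control GM libraries, with overlapping groups. At DM2 Nfe2l1 was at 411, 440 and 419 CPM in ERK3-depleted and 422, 410 and 429 CPM in MK5-depleted libraries, against 508, 531 and 510 CPM in control libraries. The groups did not overlap there, and it was called lower in both lines (−0.29 and −0.30), as was its response to differentiation (−0.26 and −0.27). At DM2 7 of the 12 regulators were called lower and 1 higher in ERK3-depleted cells, and 6 lower and 1 higher in MK5-depleted cells. Over all tested genes, 27.8% were called lower and 28% higher in ERK3-depleted cells, and 22.9% and 22.2% in MK5-depleted cells. Nfe2l2, a stress factor related to Nfe2l1, was at 96.9, 74.1 and 111 CPM in ERK3-depleted and 95.0, 123 and 127 CPM in MK5-depleted libraries, against 198, 204 and 188 CPM in control libraries. It was lower in every depleted library, by 1.06 and 0.78 log2. Ngly1, which processes Nfe2l1, was lower by 0.59 and 0.51, and Nfyc, a subunit of the factor that binds CCAAT boxes, was higher by 0.57 and 0.46. In control cells 7 regulators rose on differentiation and 1 fell, where 22.5% and 23.1% of all tested genes did. Mafk (1.16), Mafg (0.70) and Nfe2l1 (0.69) rose most.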

How the data were processed

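Poly-A RNA of 18 C2C12 libraries was sequenced by the authors, 3 libraries in each of 6 groups set from the sample labels. The deposited counts are whole numbers of uniquely mapped reads for each gene, with unstranded, forward and reverse columns. The reverse column was used, since it held 92.8 to 95.3% of the stranded counts. Per the submitters' processing notes, bcl2fastq 2.17, STAR 2.5.1b and RSEM 1.2.28 were run on GRCm38. RSEM's deposited expected counts were rounded and its deposited TPM were put on a log2 scale here, both as alternatives. The files' summary lines held 21.7 to 35.8% of reads and were left out. Symbols and positions are those of GENCODE M21, which matched 50376 of the 50600 identifiers. Within groups no library was a copy of another, since replicates differed by 8.02 to 88.0 times the counting variance. In both depleted lines at DM2 library 3 stood apart. It differed from libraries 1 and 2 by 38.7 and 88.0 times in ERK3-depleted and 38.6 and 43.9 times in MK5-depleted cells. Libraries 1 and 2 differed from each other by 23.8 and 8.02 times. Library 3 also had the lowest share of reads outside genes in each (3.79% and 2.84%).

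Genes were filtered with filterByExpr (minimum count 10), scaled by TMM and fitted with robust quasi-likelihood in edgeR 4.0.16 (R 4.3.3), in 1 model of 6 group means with 11 contrasts. Its residual degrees of freedom were 12, the common biological coefficient of variation 0.110 and the median prior degrees of freedom 6.17. P-values were adjusted by Benjamini-Hochberg over the 13939 tested genes within a contrast, with a call at under 0.05. Standard errors are the log2 fold change over the square root of F. Fits were tested on simulated data. DESeq2 1.42.0, limma 3.58.1 on log2(TPM + 1) and log2(TPM + 0.1), offsets for length and GC, replicate blocks, a covariate, left-out libraries and a threshold of 0.01 were alternatives. TMM-scaled TPM was added after seeing the data.

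In each comparison the called members with the largest changes in each class are named, together with the proteases, the activators and members without enough reads. Outside genes come from lists of related genes. The result of 1 of these lists is not reported here. The members and lists were chosen with earlier results of these data known, so no list is independent evidence. Same-numbered libraries deviated together (every correlation above 0.1) between ERK3-depleted and control cells in each medium (0.155 to 0.290 in GM, 0.108 to 0.205 at DM2), MK5-depleted and control cells in GM (0.142 to 0.190), the depleted lines at DM2 (0.281 to 0.498) and the media of the ERK3-depleted line (0.156 to 0.291), and not in the other 10 pairs of groups. The labels do not say what the numbers mark.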

Additional observations from a re-analysis of the deposited data

Results flagged for a closer look

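Each value below is a difference between a depleted line's response to differentiation and the control response, on the log2 scale, called by edgeR over all tested genes. Each was listed because the effect of differentiation itself differed between lines. Genes with a lower response in ERK3-depleted than in control cells were Psmd5 (−0.79), Psmc6 (−0.74), Psmd1 (−0.73), Psmd2 (−0.55), Psmd13 (−0.54), Psme3 (−0.53), Psmb7 (−0.51), Psmd14 (−0.47), Psmc5 (−0.47), Psma2 (−0.44), Psmc4 (−0.43), Psmc2 (−0.43), Psmg2 (−0.37), Psma5 (−0.36), Psmd6 (−0.36) and Psmd12 (−0.32). Genes with a higher response were Psmg4 (1.18), Psme2b (0.89), Psmg3 (0.76), Psme2 (0.59), Psme1 (0.54) and Psma4 (0.42). In MK5-depleted cells the response was lower for Psmd1 (−0.84), Psmc6 (−0.60), Psmd5 (−0.50), Psmd2 (−0.43) and Psmd11 (−0.35), and higher for Psmg4 (0.87), Psme1 (0.73), Psme2 (0.67) and Psmg3 (0.61).

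Reads outside genes were 3.79 to 7.73% in ERK3-depleted and 2.84 to 4.11% in MK5-depleted DM2 libraries, against 2.44 to 3.05% in control DM2 libraries. With their share as a covariate 2 of the 22 ERK3-depleted calls and all 9 MK5-depleted calls held, while the calls over all tested genes numbered 200 (3983 without it) and 2731 (2512 without it). With length and GC offsets 18 of the 22 and 3 of the 9 held, and 3971 and 1496 tested genes were called. Psmd1 overlaps exons of Gm21972 and Psmg3 those of Gm26938 on the same strand. The part of these measures in the differences was not tested otherwise.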

How the results depend on the processing

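Numbers of called members are given first, and then medians of their log2 fold changes, each with the value in the report in brackets. On unscaled log2(TPM + 1) or log2(TPM + 0.1), 0 members were called in ERK3-depleted against control GM cells (17) and 0 in MK5-depleted against control GM cells (7), and 34 in the ERK3-depleted response difference (22). Over all genes log2(TPM + 1) gave 8, 169 and 5918 calls in these (946, 1178 and 3983). TMM-scaled log2(TPM + 1), chosen after seeing the data, gave 8 and 3 in the GM comparisons, where 591 and 647 genes were called. Offsets for length and GC gave 9 and 15 in ERK3-depleted and MK5-depleted GM cells, 9 in MK5-depleted DM2 cells against control (21), and, with the replicate block, 20 in MK5-depleted GM cells, 2 in MK5-depleted against ERK3-depleted DM2 cells (0) and 19 in the MK5-depleted response difference (9). Over all tested genes the offsets alone gave 788 and 1638 calls in GM and 5426 in MK5-depleted DM2 cells (946, 1178 and 6288). In MK5-depleted GM cells DESeq2 gave 11, where it called 1561 genes, no filter on low counts 4 and the libraries of the contrast alone 16. Those alone gave 18 in the MK5-depleted response difference, and no filter gave 2 in the depleted lines against each other at DM2. The replicate block gave 16 in MK5-depleted GM cells, 2 in the depleted lines at DM2 and 15 in the MK5-depleted response difference, where a block within each line gave 14; it ended no call of a named gene. With reads outside genes as the covariate, 9 members were called on differentiation of ERK3-depleted cells (28), 27 and 15 in ERK3-depleted and MK5-depleted GM cells, 12 in ERK3-depleted DM2 cells (23) and 2 in the ERK3-depleted response difference. Over all tested genes the covariate gave 3720 calls on ERK3-depleted differentiation (7680) and 1668 and 1869 in the GM comparisons (946 and 1178). In ERK3-depleted DM2 cells it gave 2704 (7776), and in the response difference 200 (3983). Without libraries 1 and 2 of both depleted lines at DM2, 18 and 14 were called on differentiation of ERK3-depleted and MK5-depleted cells (28 and 25), 31 and 18 in the GM comparisons, 14 in ERK3-depleted DM2 cells and 6 in the ERK3-depleted response difference. At an adjusted p under 0.01, 11 and 15 members were called on differentiation of control (18) and MK5-depleted cells, 0 and 0 in the GM comparisons, and 6 and 2 in the ERK3-depleted and MK5-depleted response differences. Of all tested genes, 2355 were then higher and 2246 lower on control differentiation, and 2406 and 2435 on MK5-depleted differentiation. In GM 29 were higher and 16 lower in ERK3-depleted cells, and 129 and 92 in MK5-depleted cells. The response differences had 762 higher and 734 lower (ERK3-depleted) and 147 and 219 (MK5-depleted). The cause of these changes was not tested.

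Medians moved as follows. On log2(TPM + 1) and log2(TPM + 0.1) they were 0.082 and 0.084 for differentiation of control cells (−0.07), −0.55 and −0.55 for ERK3-depleted (−0.22) and −0.29 and −0.29 for MK5-depleted cells (−0.12). They were −0.45 and −0.46 for ERK3-depleted against control DM2 cells (0.07), −0.23 and −0.23 for MK5-depleted DM2 cells (0.13), 0.20 and 0.20 for MK5-depleted against ERK3-depleted DM2 cells (−0.01), −0.59 and −0.61 for the ERK3-depleted (−0.15) and −0.34 and −0.34 for the MK5-depleted response difference (−0.02). With length and GC offsets, without and with the block, they were 0.06 and 0.06 for control and −0.31 and −0.31 for ERK3-depleted differentiation, 0.033 and 0.033 for MK5-depleted DM2 cells, 0.02 and 0.02 for the depleted lines in GM (−0.09), −0.27 and −0.27 for the ERK3-depleted and −0.18 and −0.18 for the MK5-depleted response difference. The covariate gave 0.20 in ERK3-depleted DM2 cells. Without libraries 1 and 2 of both depleted lines at DM2 the median was 0.23 for MK5-depleted against control and 0.094 for MK5-depleted against ERK3-depleted cells.

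Leaving out 1 library at a time gave 13 to 16 calls and medians of −0.094 to −0.056 for control differentiation, 25 to 30 and −0.27 to −0.20 for ERK3-depleted and 17 to 25 and −0.19 to −0.092 for MK5-depleted differentiation. It gave 0 to 16 and 0.22 to 0.31 for ERK3-depleted and 0 to 7 and 0.17 to 0.22 for MK5-depleted GM cells, 20 to 29 and 0.051 to 0.10 for ERK3-depleted and 19 to 22 and 0.066 to 0.19 for MK5-depleted DM2 cells. For the depleted lines against each other it gave 0 to 0 and −0.12 to −0.039 in GM and 0 to 11 and −0.027 to 0.037 at DM2, and for the response differences 11 to 26 and −0.17 to −0.11 (ERK3-depleted) and 5 to 12 and −0.11 to 0.0080 (MK5-depleted). Over all genes these fits gave 5423 to 5647 calls for control, 6470 to 8383 for ERK3-depleted and 5689 to 6667 for MK5-depleted differentiation. In GM they gave 0 to 1101 calls for ERK3-depleted and 42 to 1392 for MK5-depleted cells. At DM2 the calls were 6493 to 8473 and 4698 to 6262. The depleted lines against each other gave 0 to 1 in GM and 0 to 3597 at DM2. The response differences gave 2459 to 5835 (ERK3-depleted) and 879 to 3008 (MK5-depleted).

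Some genes changed sign. On log2(TPM + 1) and log2(TPM + 0.1) this held in ERK3-depleted against control DM2 cells for Psma7 (−0.12 and −0.12), Psmd8 (−0.0037 and −0.0038), Psmd7 (−0.045 and −0.045), Psmb6 (−0.056 and −0.056), Psmb3 (−0.0020 and −0.0020), Psma6 (−0.34 and −0.34), Psmb5 (−0.49 and −0.50; it and Psma6 and Psmb1 called lower), Psme1 (−0.11 and −0.11), Psmg1 (−0.12 and −0.12) and Psmb1 (−0.20 and −0.20). In MK5-depleted DM2 cells it held for Psmd7 (−0.037 and −0.038), Psma6 (−0.13 and −0.13), Psmg1 (−0.0073 and −0.0075) and Psmb1 (−0.074 and −0.074). In ERK3-depleted differentiation it held for Psmb4 (0.068 and 0.068, and 0.38 when TMM-scaled, where it was called higher). In the ERK3-depleted response difference it held for Psmg3 (−0.055 and −0.056) and Psma4 (−0.072 and −0.072). With length and GC offsets, without and with the block, it held for Psma6 (0.039 and 0.039) and Psmd10 (0.056 and 0.056) in control differentiation, for Psme4 (0.055 and 0.056), Psma6 (−0.15 and −0.15, called lower with the block) and Psmb5 (−0.48 and −0.50, called lower in both) in ERK3-depleted DM2 cells and for Psma6 (−0.062 and −0.061) in MK5-depleted DM2 cells. Psmd1 gave 0.038 with RSEM expected counts and 0.020 with TMM-scaled TPM in ERK3-depleted differentiation, and 0.26 and 0.16 in ERK3-depleted DM2 cells. Psme3 gave 0.039 with the covariate there. Of 191 single-gene results, 188 kept their direction and their side of the threshold with DESeq2, 187 with RLE size factors, 174 with RSEM expected counts and 189 with the replicate block. Fewer did so in other settings. These were 160 on TMM-scaled TPM, 134 without libraries 1 and 2 of both depleted lines at DM2 and 132 with length and GC offsets. With the covariate 132 did so. On log2(TPM + 1) 111 did so, while 62 lost their call and 17 changed sign. Depth limits Psme2b most, whose standard errors of up to 0.30 log2 were the widest of the tested members.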
